A study of Mus musculus with 14 samples.

Results

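Of the 17117 peaks in the final DMC1 ChIP-SSDS list of *Hells* cKO testes, 1128 were autosomal, had no *Hells* CTRL counterpart and lay at the start of a noncoding transcript without a protein-coding start nearby. A peak was a member when its center (the integer midpoint of the interval) had no *Hells* CTRL center less than 400 bp away, had at least 1 transcript start of GENCODE M21 within 1 kb, and when none of these starts belonged to a gene of type protein_coding. The members were thus chosen by the presence of a peak in 1 list and its absence from the other, which are measured values, and neither is a finding. They were 7.30% of the 15443 autosomal *Hells* cKO-specific peaks (95% CI 6.90 to 7.73%), beside 8758 peaks at protein-coding starts (called coding-start peaks) and 5557 with no start within 1 kb.

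In most mammals the zinc finger protein PRDM9 binds DNA and marks the sites where SPO11 makes the DNA double-strand breaks (DSBs) of meiotic recombination, and when PRDM9 or its marks are missing, DSBs form instead at default sites, which include active promoters and other open chromatin that carries H3K4me3. HELLS is a chromatin remodeler of the SNF2 family that acts with PRDM9 at its sites. Noncoding starts are of several kinds. Long noncoding RNA (lncRNA) genes in general have promoters of their own. Small RNA genes have compact promoters or are cut from longer transcripts. Processed pseudogenes are copies of mRNAs that were reverse transcribed and inserted elsewhere, in general without a promoter of their own.

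DMC1, the strand exchange protein of meiosis, coats the single-stranded DNA at resected DSB ends, and its immunoprecipitation followed by sequencing of single-stranded DNA (ChIP-SSDS) maps where DSBs formed. *Hells* CTRL mice were *Hells* fl/Δ and *Hells* cKO mice were *Hells* fl/Δ;Stra8-iCre, all adult, with whole testis as the tissue. Both genotypes thus carried 1 deleted and 1 floxed allele, and only the mutants carried the Cre, whose Stra8 promoter drives it in male germ cells as they approach meiosis. The study names incomplete deletion in some spermatocytes as a possible source of remaining HELLS protein in the mutants. Per its methods, each replicate was made from more than 1 testis, with more testes for the mutants than for the controls, and the control mice were younger, so age and genotype cannot be told apart. The 2 replicates of each genotype had been merged into 1 list, so no spread between replicates can be given, no test across mice was possible, and the number of reads behind a peak is unknown. All confidence intervals (CI) below are exact, at 95%, and cover counting error only, and peaks of 1 list are not independent replicates.

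By the gene of the nearest start, 492 members (43.6%) belonged to lncRNA genes, 490 (43.4%) to pseudogenes, 91 (8.07%) to small RNA genes and 55 (4.88%) to the GENCODE type TEC, which marks transcribed loci still to be tested experimentally. The 27326 autosomal noncoding genes with no protein-coding start within 1 kb included 7427 lncRNA, 11393 pseudogene, 5116 small RNA and 2896 TEC genes. A *Hells* cKO peak center lay within 1 kb of a start for 7.37%, 4.56%, 2.83% and 2.59% of these classes, against 4.72% over all. The pseudogene share was thus near that over all such genes. No member had an immunoglobulin or T cell receptor segment as its nearest start. The largest types were processed pseudogenes, with 425 members, and long intergenic RNAs (lincRNA), with 327. They were followed by 84 antisense genes, 74 of the type processed_transcript, 37 snRNA genes, 33 miRNA genes and 30 transcribed processed pseudogenes. Lone starts were the rule: 1018 members (90.2%) had starts of 1 gene only, 845 (74.9%) had a single start, and 65 (5.76%) had starts of more than 1 class. The 1128 members had 1122 different nearest genes.

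**Figure D1:**
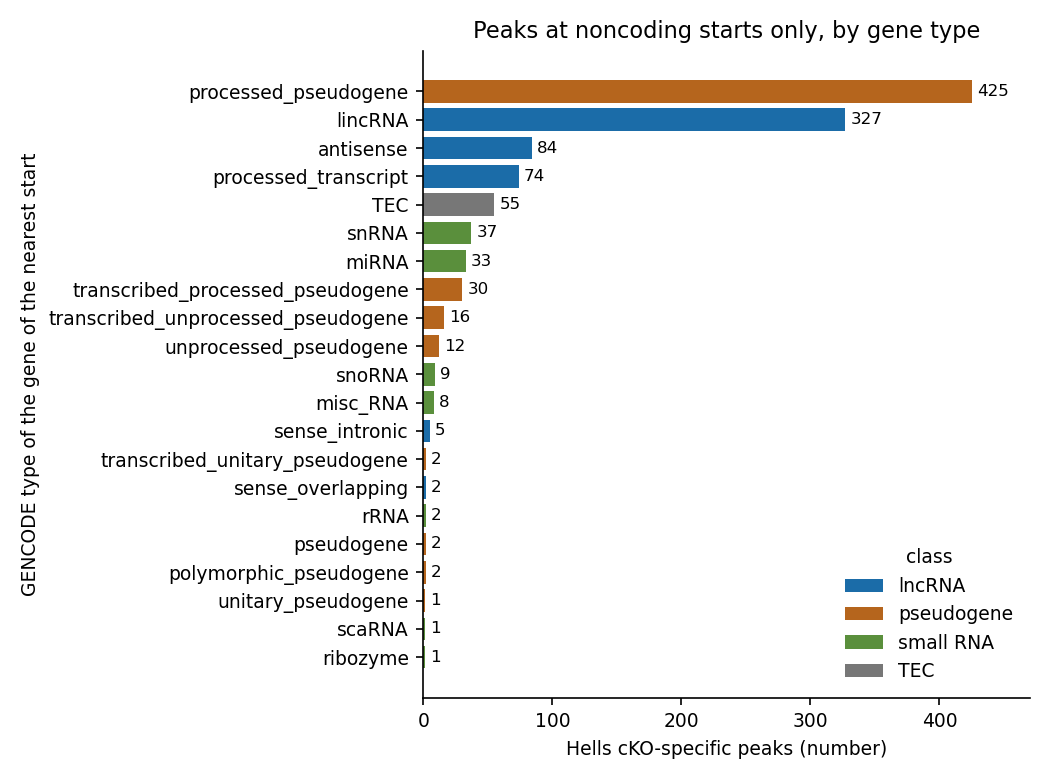
Number of autosomal *Hells* cKO-specific peaks at noncoding starts only (x axis) for each GENCODE type of the gene of the nearest start (y axis), coloured by class. Processed pseudogenes (425) and lincRNA genes (327) make up most of the 1128 peaks.

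The control list measured in the same way gives the background. Of 9519 autosomal *Hells* CTRL-specific peaks, 245 met the same rule for starts, which is 2.57% (CI 2.27 to 2.91%). No start lay within 1 kb of 93.5% of the 9519, against 36.0% of the autosomal *Hells* cKO-specific peaks. Among peaks with a start, those at noncoding starts only were 39.8% in the control (245 of 616) and 11.4% in the mutant list (1128 of 9886). The 245 control peaks were 92 lncRNA, 79 pseudogene, 41 small RNA and 32 TEC peaks and 1 peak at an immune receptor segment. A further 21 autosomal *Hells* cKO peaks at noncoding starts only had a *Hells* CTRL center less than 400 bp away and were left out by the rule. Their median strength was 16.

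Windows at the centers of 8 members are shown to let the contrast in CpG content be seen, since CpG islands are a usual feature of mammalian promoters. Each is 120 bp of GRCm38.p6 around the center on the strand of the noncoding gene, with each CpG in capitals. The first 5 come from members of high strength with dense CpG, the sixth from the strongest processed pseudogene member, and the last 2 from strong members with few CpG.
1810026B05Rik (chr7:73557898-73558017, minus strand): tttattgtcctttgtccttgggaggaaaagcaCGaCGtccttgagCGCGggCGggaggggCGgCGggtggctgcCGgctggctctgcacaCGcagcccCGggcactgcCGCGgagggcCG
Dleu2 (chr14:61648039-61648158, minus strand): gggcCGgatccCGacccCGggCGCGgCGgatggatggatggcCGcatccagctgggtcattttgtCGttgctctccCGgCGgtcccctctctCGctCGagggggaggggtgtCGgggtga
Lncpint (chr6:31216769-31216888, minus strand): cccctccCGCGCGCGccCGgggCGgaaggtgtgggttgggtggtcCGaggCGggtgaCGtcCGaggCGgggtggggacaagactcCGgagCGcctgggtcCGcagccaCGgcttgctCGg
Malat1 (chr19:5803328-5803447, minus strand): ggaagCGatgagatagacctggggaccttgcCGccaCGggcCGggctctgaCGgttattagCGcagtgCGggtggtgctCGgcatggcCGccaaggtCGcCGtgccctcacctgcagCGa
Rnu1b6 (chr3:96459372-96459491, minus strand): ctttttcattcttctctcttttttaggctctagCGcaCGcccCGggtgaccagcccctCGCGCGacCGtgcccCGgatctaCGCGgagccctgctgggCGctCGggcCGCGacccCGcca
Pced1c-ps (chr1:69377562-69377681, plus strand): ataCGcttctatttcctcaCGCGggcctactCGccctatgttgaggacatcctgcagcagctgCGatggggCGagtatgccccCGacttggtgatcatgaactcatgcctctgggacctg
Gm9989 (chr3:81924253-81924372, minus strand): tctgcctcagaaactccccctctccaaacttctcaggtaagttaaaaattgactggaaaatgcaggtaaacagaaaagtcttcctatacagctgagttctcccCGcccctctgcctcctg
Mir99ahg (chr16:77500463-77500582, plus strand): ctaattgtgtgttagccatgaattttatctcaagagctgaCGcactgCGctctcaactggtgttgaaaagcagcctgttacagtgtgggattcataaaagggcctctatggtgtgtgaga

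The strength of a peak is the authors' score and was used only to rank peaks inside the *Hells* cKO list. Members had a median strength of 24 (quartiles 16 and 44, range 7 to 453), with a CI of 23 to 26. Coding-start peaks had a median of 45 (CI 43 to 46) and peaks with no start a median of 22 (CI 21 to 22). The members thus lay near the peaks away from any start and below the coding-start peaks. Among the classes, the medians were 29 for small RNA (CI 21 to 38), 25 for lncRNA (CI 23 to 28), 24 for TEC (CI 18 to 30) and 22.5 for pseudogene members (CI 21 to 25), and these intervals overlapped. Types spread further: snRNA members had a median of 40 (CI 29 to 60) and members of the type processed_transcript 31.5 (CI 24 to 40), against 22 (CI 21 to 24) for processed pseudogene and 19 (CI 17 to 27) for miRNA members.

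**Figure D2:**
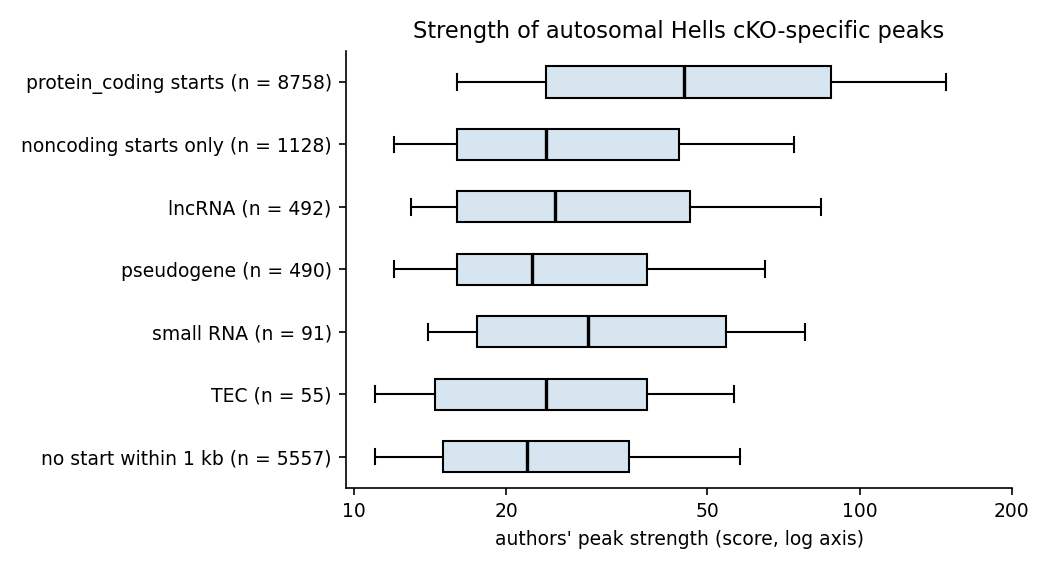
Strength in the authors' score (x axis, log) of autosomal *Hells* cKO-specific peaks at protein-coding starts, at noncoding starts only (all and by class) and with no start within 1 kb. Lines in the boxes are medians, boxes span the quartiles and whiskers reach the 10th and 90th percentiles. The median of the noncoding-start peaks (24) sits near that of peaks with no start (22) and below that of peaks at protein-coding starts (45).

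When the 15443 autosomal specific peaks were ranked into 10 strength classes of nearly equal size, members made up 8.54% of the weakest class and 10.8% of the third (CI 9.31 to 12.5%, strengths 17 to 21). Their share was lowest in the 3 strongest classes, at 5.63%, 4.6% and, in the strongest, 2.39% (37 of 1545, CI 1.69 to 3.29%). Over the same classes the share of coding-start peaks went from 463 of 1545 in the weakest to 1387 of 1545 in the strongest. Few of the strongest peaks were thus at noncoding starts, and 430 members (38.1%) were at or above the median of all autosomal specific peaks.

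The 10 strongest members had strengths of 217 to 453. Of these, 9 were lncRNA peaks, 5 of them of the type processed_transcript, and 9 were CpG rich. The strongest was centered 15 bp inside *1810026B05Rik* (chromosome 7, 73556666 to 73559251, strength 453), also known as *Chaserr*, a lncRNA gene upstream of the chromatin remodeler gene *Chd2*, whose nearest start was 16128 bp away. It was followed by *Gm10433* (chromosome 12, 100186327 to 100188904, strength 398) and by *Dleu2* (chromosome 14, 61646732 to 61649467, strength 386). *Dleu2* is the host of the miRNAs miR-15a and miR-16-1, and the center lay 523 bp downstream of its start. *Dubr* (strength 242), named after its binding upstream of *Dppa2*, and *Lncpint* (strength 217), a lncRNA gene regulated by p53, also belonged to these 10.

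Position next to a coding promoter differed among the 10. The *1810059C17Rik* peak (chromosome 2, 18055502 to 18058803, strength 261) was centered in *Mllt10*, 1915 bp from the nearest coding start. The *2610037D02Rik* peak (strength 284) lay 2321 bp from a start of *Arid2*, a subunit of the PBAF remodeling complex. The other 8 were more than 5 kb from any coding start. The *Dubr* and *Lncpint* centers were 141377 and 181906 bp from one.

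Over all members, the median distance to the nearest coding start was 32026 bp (CI 29536 to 35793). A coding start lay within 2 kb of 20 members (1.77%), within 5 kb of 91 (8.07%) and within 10 kb of 229 (20.3%). It was farther than 100 kb for 263 (23.3%). The rule left out every peak with a coding start within 1 kb, so these distances were in part set by it. The same distances are not given for other peaks, so they are not read as a trait of the members. The center was inside a protein-coding gene for 207 members (18.4%) and inside a coding-gene exon for 32 (2.84%). This share was 52.4% for antisense members (44 of 84), whose genes are annotated on the strand opposite to another gene, and 4.59% for lincRNA members (15 of 327).

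CpG content was not used by the rule. A window of 250 bp on each side of the center was called CpG rich when its observed to expected CpG ratio was at least 0.6 and its GC content at least 50%. By this, 357 members (31.6%, CI 28.9 to 34.5%) were CpG rich, against 52.8% of all autosomal *Hells* cKO-specific peaks. The share was 81.3% at coding-start peaks and 12.2% at peaks with no start. The members lay between these 2 groups, outside the CI of either, and below the share over the whole list. Of the *Hells* CTRL-specific peaks at noncoding starts, 0 of 245 were CpG rich, which allows a share of up to 1.49% (upper bound of the exact CI). Over all 9519 autosomal *Hells* CTRL-specific peaks, 11 were CpG rich (0.116%), so the lack of CpG-rich windows was not particular to noncoding starts.

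The classes hardly differed in this measure. CpG-rich windows made up 30.9% of lncRNA (152 of 492), 31% of pseudogene (152 of 490), 39.6% of small RNA (36 of 91) and 30.9% of TEC members (17 of 55), with overlapping intervals. Among types with at least 10 members, the highest share was 62.5% for transcribed unprocessed pseudogenes (10 of 16, CI 35.4 to 84.8%), followed by 44.6% for processed_transcript members (33 of 74, CI 33.0 to 56.6%). The median CpG count in the window was 17 for members (CI 17 to 18), 42 for coding-start peaks and 14 for peaks with no start. *Hells* CTRL-specific peaks at noncoding starts had a median of 4 (CI 4 to 5).

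Members with many CpG were stronger. The 357 CpG-rich members had a median strength of 32 (CI 28 to 37) and the other 771 a median of 22 (CI 21 to 24). By CpG count, the median was 22 at 11 to 20 CpG (543 members), 23 at 21 to 30 (213 members), 34 at 31 to 40 (98 members, CI 26 to 44) and 50 above 40 CpG (117 members, CI 35 to 55). The 24 members with at most 5 CpG had a median of 26.5 (CI 17 to 44). Coding-start peaks went from 26 to 62 between 11 to 20 and more than 40 CpG. Within the CpG-rich windows, members at 32 were still below coding-start peaks at 51 (CI 49 to 52).

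The 2 ends of the CpG range among members at or above the median strength of the list were *Gm11837*, an antisense gene (strength 122, 83 CpG), and *6530409C15Rik*, also antisense (strength 249, 82 CpG), against *Vmn2r125* and *Gm25099* with 1 CpG each (strengths 55 and 37). The *Gm9989* peak (chromosome 3, 81923289 to 81925338, strength 291) was the only 1 of the 10 strongest that was not CpG rich, with 12 CpG. *Mir99ahg*, the host gene of the miR-99a cluster, had 3 members, among them a peak of strength 134 with 5 CpG. In all, 24 members had at most 5 CpG, 12 of them at pseudogenes, and in 6 of the 24 over 50% of the window was masked as repeat in the assembly. Over all members that was so for 27 windows (2.39%), against 6.41% of peaks with no start and 0.240% of coding-start peaks.

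The annotation was then read from the side of the genes. Of 27326 autosomal noncoding genes with no protein-coding start within 1 kb of any of their starts (called lone genes), 1289 (4.72%, CI 4.47 to 4.98%) had a *Hells* cKO peak center within 1 kb, and 0.977% had a *Hells* CTRL peak center in the same reach. These counts take every autosomal peak of each list, common ones included. Among the 3096 noncoding genes that did have a coding start within 1 kb, 45.6% had a *Hells* cKO peak, as did 45.6% of the 20807 protein-coding genes. Lone noncoding genes thus carried a peak far less often than noncoding genes beside a coding start, and more often in the mutant than in the control list. The lists differ in size, with 17117 *Hells* cKO and 11133 *Hells* CTRL peaks, and the part of this in the contrast between lists was not tested.

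The share differed between types of lone genes. It was 19.3% for processed_transcript genes (83 of 429, CI 15.7 to 23.4%), 7.53% for lincRNA (363 of 4820), 5.11% for antisense (94 of 1841) and 2.59% for TEC genes (75 of 2896). Pseudogenes that GENCODE lists as transcribed had a peak more often than the others of their kind. For processed pseudogenes the shares were 13.4% when transcribed (32 of 239, CI 9.34 to 18.4%) and 5.03% otherwise (443 of 8813, CI 4.58 to 5.50%). For unprocessed pseudogenes, which arise by gene duplication, they were 8.78% when transcribed (18 of 205, CI 5.29 to 13.5%) and 1.02% otherwise (18 of 1770, CI 0.604 to 1.6%). Transcribed pseudogenes had more starts per gene, 1.99 and 2.21 against 1. With the 5′-most start of each gene alone, chosen after seeing the data, their shares were 11.3% (CI 7.58 to 16%) and 8.29% (CI 4.91 to 12.9%). Processed_transcript genes had 2.67 starts per gene and lincRNA genes 1.37. By the 5′-most start alone, the shares of these 2 types were 15.6% (CI 12.3 to 19.4%) and 6.93% (CI 6.23 to 7.68%).

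Among small RNA genes the shares were 3.49% for miRNA (60 of 1717), 3.39% for snRNA (42 of 1240) and 1.78% for snoRNA (23 of 1293). For rRNA genes, 2 of 318 had a *Hells* cKO peak and more had a *Hells* CTRL peak, with overlapping intervals. Immune receptor segments had 3 of 494 (0.607%) in the *Hells* cKO list and 4 in the *Hells* CTRL list. For sense_intronic genes, the shares in the lists were 1.64% and 1.97%, so in these 3 groups the mutant share was below the control share, with overlapping intervals. The intervals of the 2 lists also overlapped where the mutant share was higher for snoRNA genes (*Hells* CTRL 0.928%, CI 0.480 to 1.62%). The same held for unprocessed pseudogenes not listed as transcribed (*Hells* CTRL 0.678%, CI 0.351 to 1.18%).

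**Figure D3:**
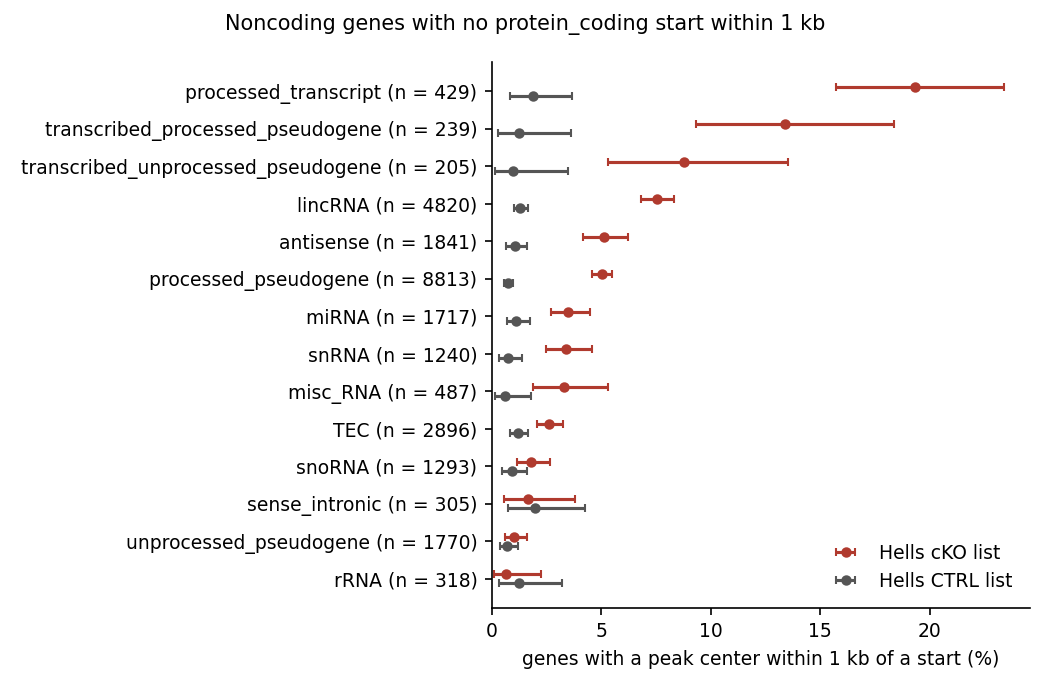
Share of lone noncoding genes (x axis, percent) with a peak center within 1 kb of a start, for GENCODE types with at least 200 such genes (y axis, number of genes in brackets), in the *Hells* cKO and the *Hells* CTRL list. Bars are exact 95% intervals. The *Hells* cKO share reaches 19.3% for processed_transcript genes, while the *Hells* CTRL share runs from 0.616 to 1.97%. Immune receptor segments are not drawn.

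Within each of the largest types, the share of lone genes with a peak center within 1 kb of the 5′-most start rose with the CpG count within 250 bp of that start. For lone processed pseudogenes it was 0.223% at 0 to 5 CpG (9 of 4030), 2.45% at 6 to 10, 11.7% at 11 to 20, 33.0% at 21 to 30 and 45.1% above 30 (51 of 113, CI 35.8 to 54.7%). For lincRNA genes it went from 0.842% at 0 to 5 CpG to 57.7% above 30 (60 of 104, CI 47.6 to 67.3%). For antisense genes it went from 0 of 690 to 39.6% (19 of 48), and for miRNA genes from 0.359% to 48.6% (18 of 37). Processed_transcript genes went from 0.641% at 0 to 5 CpG to 61.3% at 21 to 30 and had 57.9% above 30. Of the 20 lone snRNA genes with more than 30 CpG, 19 had a *Hells* cKO peak. In the *Hells* CTRL list the same bins held few genes with a peak, 0 of 104 lincRNA genes and 0 of 113 processed pseudogenes above 30 CpG. At 0 to 5 CpG the lists changed order, with 28 *Hells* CTRL against 9 *Hells* cKO processed pseudogenes.

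**Figure D4:**
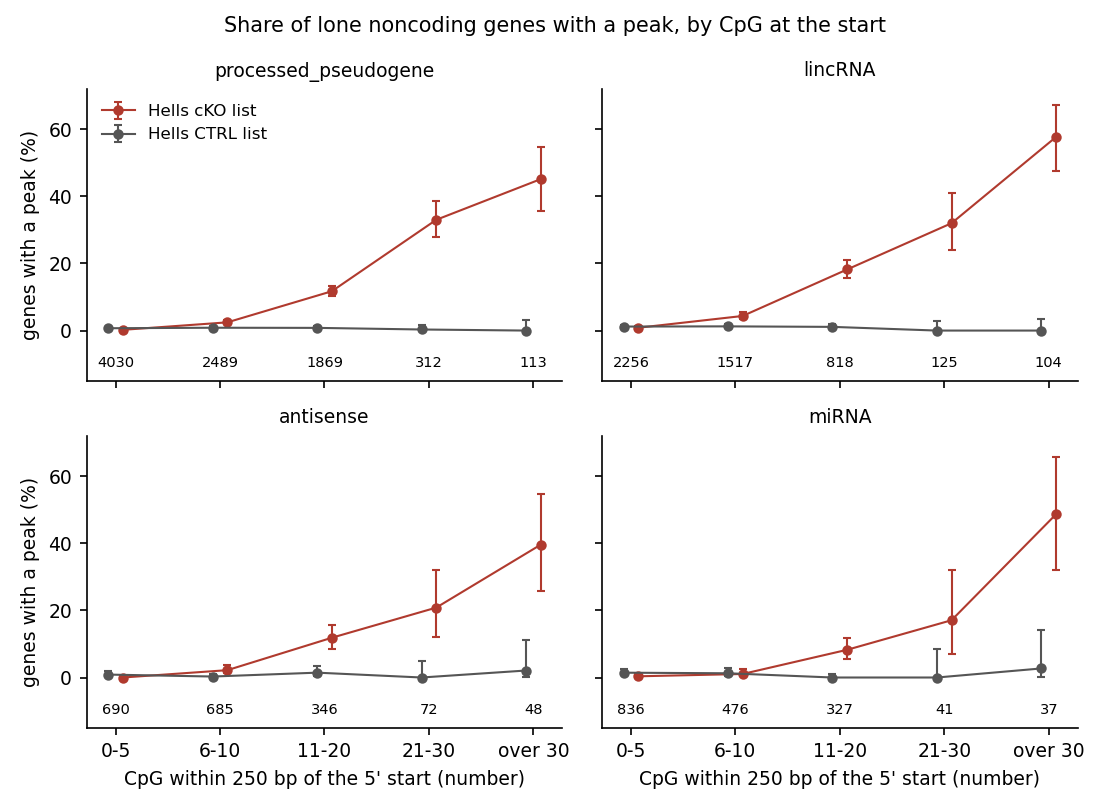
Share of lone noncoding genes with a peak center within 1 kb of the 5′-most start (y axis, percent) in bins of the number of CpG within 250 bp of that start (x axis), for 4 gene types and both lists. Bars are exact 95% intervals and the small numbers along the axis are genes per bin. The *Hells* cKO share rises with CpG in each type, to 45.1% for processed pseudogenes and 57.7% for lincRNA genes, while the *Hells* CTRL share is 0 in the highest bin of these 2 types.

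The median CpG count at the 5′-most start was 17 for lone processed pseudogenes with a *Hells* cKO peak (443 genes, CI 16 to 18) and 6 for those without (8370 genes, CI 6 to 6). With the peak again counted at the 5′-most start, the pairs of medians were 14.5 and 6 for lincRNA, 25 and 7 for processed_transcript, 16 and 5 for miRNA and 24 and 4 for snRNA genes. The density profile had its top at the start itself. Processed pseudogenes with a peak had on average 5.05 CpG in the 100 bp before the start and 4.82 in the 100 bp after it, and 1.22 in the bin from 600 to 500 bp upstream. Those without a peak had 1.79 and 1.89 around the start. For lincRNA genes with a peak the values were 4.37 and 4.31 around the start and 2.05 in the same upstream bin, so that the decline toward the upstream side was steeper for the pseudogenes.

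The side of the start on which the center fell was not used by the rule. Centers were downstream of the nearest start for 716 members (63.5%, CI 60.6 to 66.3%), with a median position of 108 bp downstream (CI 79 to 130). For coding-start peaks the share was 70.9% and the median 86 bp. Pseudogene members were downstream in 73.9% (CI 69.7 to 77.7%) and lncRNA members in 55.9% (CI 51.4 to 60.3%), and these intervals do not overlap. For processed pseudogenes the median position was 198 bp downstream (CI 159 to 234), and 68.5% of their centers (291 of 425) were inside the annotated pseudogene. For miRNA members, whose annotated start is that of the hairpin and not of the primary transcript, 9 of 33 centers were downstream (27.3%, CI 13.3 to 45.5%).

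Members were also less tightly placed than coding-start peaks. The center was within 300 bp of the start for 60.9% of members (CI 58.0 to 63.8%) and for 79.1% of coding-start peaks (CI 78.2 to 79.9%), with median distances of 234 and 139 bp. More annotated starts per coding gene make a near start more likely there, 4.34 against 1.13 for lone noncoding genes, and the part of this was not tested. In the *Hells* CTRL-specific peaks at noncoding starts, 51.0% of centers were downstream and the median distance was 506 bp.

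**Figure D5:**
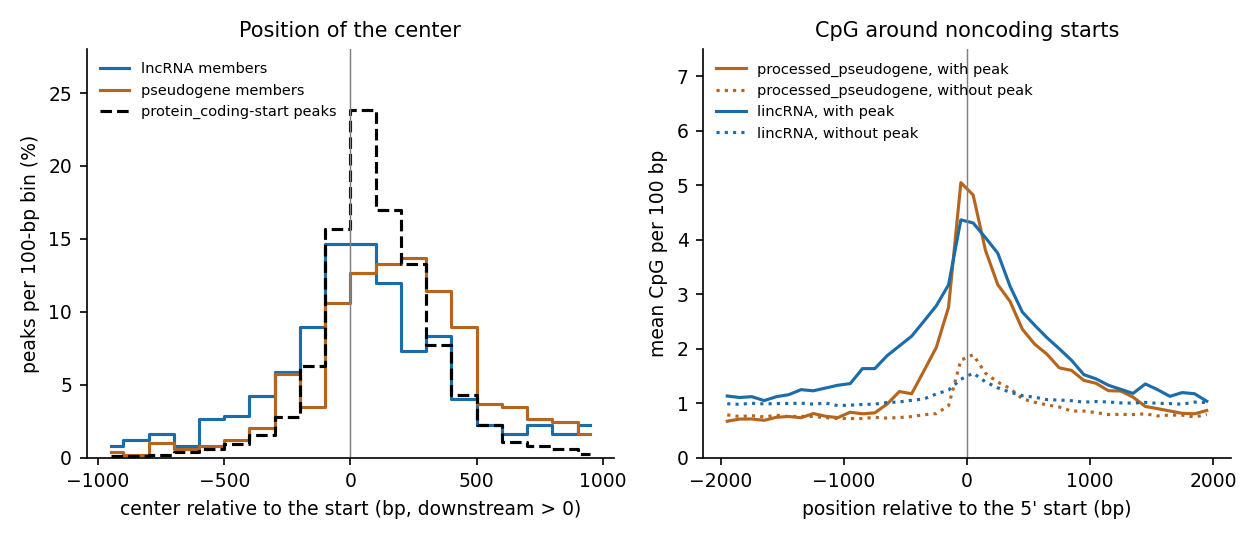
Left, share of peaks (y axis, percent per 100 bp bin) by the position of the center relative to the nearest start (x axis, bp) for lncRNA members, pseudogene members and peaks at protein-coding starts. Right, mean number of CpG per 100 bp (y axis) around the 5′-most start (x axis, bp) of lone processed pseudogenes and lincRNA genes with and without a *Hells* cKO peak. Pseudogene centers lie mostly downstream (73.9%), and CpG density at processed pseudogenes with a peak reaches 5.05 just before the start.

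The 425 processed pseudogene members were matched to their parent genes by alignment of the pseudogene transcripts to protein-coding transcripts. A parent was found for 395 of them (92.9%), from 291 different genes. Of the 8370 lone processed pseudogenes without a *Hells* cKO peak, 5911 had a matched parent (70.6%). Identity to the parent and peaks at the parent cover matched pseudogenes only, so they compare unequally filtered sets. Median identity to the parent was 96.4% (CI 95.9 to 96.8%) for members and 91.7% (CI 91.5 to 92.0%) for lone processed pseudogenes without a *Hells* cKO peak. Identity of at least 95% was found for 61.3% of the matched members (242 of 395) and 30.6% of those without a peak (1806 of 5911). As background, a copy collects differences from its parent in the time after insertion. Members were also longer, with a median of 691 bp (CI 624 to 750) against 538 bp (CI 525 to 550). The alignment began in the first 100 bases of the parent transcript about as often in both, in 23.5% (CI 19.4 to 28%) and 25.8% (CI 24.7 to 27.0%). The list rests on reads mapped to a single place, and how far reads from a parent could be placed on a near-identical copy was not tested.

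An autosomal parent itself had a *Hells* cKO peak within 1 kb of a start for 81.8% of members (315 of 385, CI 77.6 to 85.5%) and for 71.1% of pseudogenes without a peak (4053 of 5698, CI 69.9 to 72.3%). Over all 8813 lone processed pseudogenes, 4.82% were at members by their nearest start. This share includes pseudogenes with no matched parent, which are in no family, so it is not a like-for-like baseline. Families of 1 parent ranged widely. Of the 18 parents with at least 30 lone pseudogenes, 4 had a share above 4.82% and 9 had no member. *Gapdh*, a glycolytic enzyme, had 0 of 187, *Hmgb1* 0 of 133, *Rpl29* 1 of 111, *Rpl7a* 3 of 147 and *H3f3a* 2 of 49. *Rps2* (a small ribosomal subunit protein) was the parent of 10 members among its 92 lone pseudogenes (10.9%), *Rpl15* of 5 among 33 and *Rps6* of 4 among 30. Some smaller families reached higher shares. *Ptma* (prothymosin alpha) was that of 6 among 10, *Rpl6* of 6 among 14, *Hmgn1* of 4 among 10 and *Gpbp1l1* of 4 among 5. All 5 lone pseudogenes of *Ppp1r2*, an inhibitor of protein phosphatase 1, were members, with strengths of 63, 60, 59, 55 and 46. The 6 pseudogenes of *Ptma* had strengths of 14 to 78, and the 6 of *Rpl6* of 15 to 62 although *Rpl6* itself had no *Hells* cKO peak within 1 kb of a start. These parents were named after their counts were seen.

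The strongest processed pseudogene member was *Pced1c-ps* (chromosome 1, 69376378 to 69378867, strength 269, 29 CpG), for which no parent was matched. *Gm9923* (strength 179) was 99.95% identical to *Hbs1l*, a ribosome rescue factor, and *Gm15719* (strength 156) was 93.5% identical to *Bclaf1*. Transcribed processed pseudogenes were led by *Gm10110* (strength 75), *Gm6150* (strength 66) and *Magef1* (strength 63). Among unprocessed ones, *Pisd-ps2* (strength 138) and *Gm7972* (strength 116) led the transcribed type. *Zfp422-ps* (strength 56), *Vmn2r125* (strength 55) and *Gm28661* (strength 40) led the rest. The *Gm6150* window was masked as repeat over 86.4% of its length.

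Some snRNA members lay in clusters. Of the 37 snRNA members, 18 lay in 5 runs of at least 3 members whose centers followed each other within 50 kb. How many of the 1240 lone snRNA genes lie in such runs was not counted, so this is not read as a trait of the members. The median distance from an snRNA member to the next *Hells* cKO peak was 8899 bp (CI 4414 to 14634), against 33109 bp (CI 31011 to 36668) over all members. This distance is in part set by the same runs. The strongest run held 4 snRNA peaks on chromosome 3 (96449282 to 96489523, strengths 87 to 165), with *Rnu1b6*, a gene of the spliceosomal U1 RNA, as the strongest. A run of 5 lay on chromosome 12 (54709971 to 54735203, strengths 60 to 115). *Rnu3b1*, *Rnu3b2*, *Rnu3b3* and *Rnu3b4*, 4 of the 9 snoRNA members and genes of the U3 RNA that takes part in rRNA processing, had peaks of strength 70, 52, 55 and 69 inside *Tex14* on chromosome 11. No run of miRNA members was found, and their median distance to the next *Hells* cKO peak was 37379 bp (CI 14403 to 72637). These runs were picked after their values were seen, and copies in such clusters are near-identical, so reads could be split between them.

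The 33 miRNA members had strengths of 10 to 112, and 18 of them matched a mature sequence of RefSeq (GRCm38.p6). The strongest was at *Mir142* (chromosome 11, 87755552 to 87758013, strength 112, 16 CpG), a miRNA of blood cells, with the center 82 bp upstream of the hairpin. *Mir34b* (chromosome 9, 51102669 to 51104884, strength 73, 46 CpG), of the miR-34b and miR-34c cluster that is abundant in the testis, followed. Its center lay in *Btg4*, 131 bp upstream of the hairpin and 1698 bp from the nearest coding start. *Gm23366* (strength 57, 70 CpG) was centered inside *Foxd3*, 1149 bp from its start. The mature arms of the 2 named miRNAs are given with the seed (bases 2 to 8) in capitals, because they identify the product of each locus. The 29 mature arms matched to members had 29 different seeds, so no seed family recurred.
mmu-miR-142a-5p (chr11:87756867-87756887, plus strand): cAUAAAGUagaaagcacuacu
mmu-miR-142a-3p (chr11:87756903-87756925, plus strand): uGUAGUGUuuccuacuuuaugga
mmu-miR-34b-5p (chr9:51103610-51103632, minus strand): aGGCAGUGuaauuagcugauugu
mmu-miR-34b-3p (chr9:51103574-51103595, minus strand): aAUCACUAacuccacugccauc

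Noncoding genes of known function were looked up by lists, to be read beside the shares over all genes given above, 4.72% for lone genes and 45.6% for noncoding genes with a coding start within 1 kb. Of 9 annotated imprinted noncoding genes, 4 had a start within 1 kb of a member and 5 had no *Hells* cKO peak. Of these 9, 8 were lone genes, 3 of them with a peak. *Airn*, the antisense RNA that silences *Igf2r*, had a peak of strength 50, *Meg3* 27 and *Peg13* 18. The *Nespas* peak had a strength of 84. *H19*, *Kcnq1ot1*, *Mirg*, *Rian* and *Snhg14* had none, with the nearest *Hells* cKO center to a *Kcnq1ot1* start at 1116 bp, just beyond the reach. For *Meg3* and *Nespas* the nearest annotated start was that of another, overlapping noncoding gene. No gene of this list had a *Hells* CTRL peak within 1 kb.

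Of 22 long-studied lncRNA genes, 18 were lone, 6 of them with a *Hells* cKO peak, as had 2 of the 4 beside a coding start. In all, 7 were at members, with the strength in brackets: *Dleu2* (386), *Lncpint* (217), *Malat1* (174), *Crnde* (44), *Rmst* (44), *Halr1* (32) and *Pantr1* (18). *Tug1* had a *Hells* cKO peak that a coding start 86 bp away kept out, and the other 14 had none. *Malat1* and *Neat1*, adjacent genes of abundant nuclear RNAs on chromosome 19, differed. The *Malat1* center lay 716 bp upstream of its start with 43 CpG in the window, whereas the *Hells* cKO center nearest to a *Neat1* start was 24624 bp away. *Pvt1* had 34 CpG at its 5′-most start and no *Hells* cKO center within 77702 bp, so a CpG count of this size was not always accompanied by a peak.

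Hosts of snoRNAs, whose introns carry the small RNAs, had peaks in 11 of 15 cases, 6 as members and 5 beside a coding start. Of the 15, 9 were lone genes, with a peak at 6, and 6 had a coding start within 1 kb, with a peak at 5. The members were at *Snhg6* (102), *Snhg8* (87), *Snhg17* (47), *Snhg15* (37), *Snhg5* (29) and *Snhg7os* (15), the gene opposite *Snhg7*. A *Hells* CTRL center lay 139 bp from another start of *Snhg6*. Hosts of miRNAs had 4 of 10 at members, all 4 among the 9 lone genes: *Mir99ahg* (3 members, among them a peak of 134), *Mir155hg* (74), *Mir9-3hg* (68) and *Mir124a-1hg* (23). Among structured RNAs, 5 of 12 were at members, all 5 among the 7 lone genes, with *Rn7sk*, which holds the elongation factor P-TEFb inactive (121, the nearest start being that of *C920006O11Rik*), *Rnu11* (57), *Terc*, the RNA of telomerase (53), *Rny1* (12) and *Vaultrc5* (11). The 5 with a coding start within 1 kb, *Rmrp* and *Rpph1* among them, had a *Hells* cKO peak in each case.

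Short promoter words were counted on both strands within 150 bp of the center. The GC box bound by SP and KLF factors (GGGCGG) was in 26.9% of member windows (CI 24.3 to 29.6%), against 44.2% of all autosomal specific peaks and 7.4% of windows of this length at all 31523 lone noncoding starts. It was in 62.0% of coding-start and 19.6% of no-start windows. CCAAT, the NF-Y word, was in 29.7% of member windows, 24.7% of all specific peaks and 38.3% of noncoding starts. The TATA box (TATAAA) was in 8.51% of members, 6.68% of specific peaks and 17.7% of noncoding starts. The ETS word (CCGGAAG) was in 6.38% of members and 10.1% of specific peaks. TGACGT (CRE), CACGTG (E-box), CCGTTA (MYB) and GCGCATGC (NRF1) were in 7.18%, 6.38%, 4.08% and 0.887% of members, against 6.93%, 7.68%, 3.94% and 1.71% of specific peaks. None of these words holds another, but matches can share bases, and a match is a string of letters and not a bound site. Among CpG-rich windows, the GC box was in 51.5% of CpG-rich members and 69.2% of CpG-rich coding-start peaks.

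Members were found on all 19 autosomes, from 5.44% of the specific peaks of chromosome 11 (50 of 919, CI 4.06 to 7.11%) to 9.74% on chromosome 17 (68 of 698, CI 7.64 to 12.2%). Another *Hells* cKO peak lay within 10 kb of 175 members (15.5%). At the limits of the rule, the 2 members farthest from their start had centers 992 and 991 bp away (strengths 89 and 31), and the 2 nearest peaks left out on this ground were 1004 and 1008 bp away (strengths 26 and 23). The members nearest to a coding start were 1049 and 1069 bp from it (strengths 33 and 26), and the nearest left out, which also had a noncoding start, 964 and 962 bp (strengths 173 and 131). The members nearest to a *Hells* CTRL center were 440 and 468 bp away (strengths 23 and 27), and the nearest common peaks 344 and 324 bp (both of strength 12).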

How the data were processed

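Testis chromatin was immunoprecipitated for DMC1 and single-stranded DNA was sequenced (ChIP-SSDS), with 2 replicates per genotype. Per the study's methods, reads were mapped to mm10, unique non-duplicate fragments were kept, peaks were called with MACS, replicates were merged by irreproducible discovery rate, and peaks were re-centered. The submitters' processing notes also name CASAVA, Trimmomatic, Bowtie2 and BWA. The deposited values are peak intervals with a strength, a score of whole numbers that the authors made from fragments at the peak after correction for local background and library size. It cannot be compared between genotypes and gives no depth, so the precision behind 1 peak is unknown.

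Members and lists were chosen with earlier results of these data known. Starts came from GENCODE M21 (GRCm38), bases and masking from the GRCm38.p6 RefSeq genome, and parents from BLAST+ 2.17.0 alignments that left out genes within 50 kb. Counts used Python 3.11.15, pandas 2.3.3, numpy 2.4.6 and scipy 1.17.1 (exact 95% intervals for shares and medians), and figures matplotlib 3.10.9. There was no test between genotypes. On simulated peaks, the membership step gave the same result as a plain search by the same rule for 2000 of 2000. This checks the code and not the detection of peaks. Members picked for closer reading were the 10 strongest and the 3 strongest of each class and of each type with at least 10 members. The 2 with the most and the 2 with the fewest CpG among members at or above the median strength were added. So were the listed genes and the members at the limits of the rule. Not all picked members are named above. Alternatives varied the reach, the coding distance, the annotation, the CpG window and threshold, and the weak peaks. The 5hMeDIP data were not analysed here.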

Additional observations from a re-analysis of the deposited data

How the results depend on the processing

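The number of members ranged from 984 to 1284 when the reach, the coding distance, the *Hells* CTRL distance, the chromosomes or the annotation were changed. Of the 33 members picked by strength and CpG, not all of which are named above, 20 stayed members under each of the 8 membership settings. With peaks at or above the median strength alone, 447 members were left, of which 211 were lncRNA, 175 pseudogene, 42 small RNA and 19 TEC. Their median strength was 50, 41.4% were CpG rich, 32.4% held a GC box, and 1.96% of lone genes had such a peak. With a reach of 500 bp, 36.9% of members were CpG rich, 30.7% held a GC box, 3.69% of lone genes had a peak, and the share of the *Hells* CTRL-specific list at noncoding starts only was 1.30%. With 2 kb, 28.7% of members were CpG rich, 6.32% of lone genes had a peak, and the *Hells* CTRL share was 4.45%. With coding starts kept 5 kb away, the *Hells* CTRL share was 2.14%. The CpG-rich share was 34.8% for 100 bp and 21.1% for 500 bp on each side, and 14.5% when a ratio of 0.75 and a GC content of 55% were required. With the 5′-most start of each gene only, chosen after seeing the data, 4.52% of lone genes had a peak. Centers were downstream of the start for 61.1 to 63.7% of members under all 8 settings. No paired analysis was possible because the replicates of each genotype were merged into 1 list, and for the same reason no replicate could be left out. Limits: each genotype is 1 list of unknown depth, a site below the calling threshold is not an absent one, age differed with genotype, and near-identical copies depend on how reads were placed.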

Other observations

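Chromosome X, which the rule left out, held 69 peaks at noncoding starts only among 545 *Hells* cKO-specific peaks (12.7%, exact 95% CI 9.99 to 15.7%), against 7.30% on the autosomes. Of these 69, 53 were at pseudogenes, 42 of them processed, and 14 at lncRNA genes. Their median strength was 34, and that of all *Hells* cKO-specific peaks of chromosome X was 40. By genes, 4.73% of 28937 lone genes had a *Hells* cKO peak with chromosome X added, against 4.72% on the autosomes alone. The share of lone genes on chromosome X alone was not computed, so the higher share of peaks is not read as a trait of this chromosome.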
